A study of Homo sapiens with 6 samples.

Results

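The Notch receptors and ligands were examined in definitive endoderm made from HuES8, an established human embryonic stem cell line. The set was chosen by gene symbol, as the 4 receptors NOTCH1, NOTCH2, NOTCH3 and NOTCH4 and the 5 ligands DLL1, DLL3, DLL4, JAG1 and JAG2, which made 9 of the 58830 genes deposited by the authors. Total RNA was sequenced from 6 libraries in 2 groups of 3. The first group, DE, was wild-type HuES8 endoderm, and the second, KD, was HuES8 endoderm with the long noncoding RNA GATA6-AS1 knocked down. Both groups received 100 ng/mL Activin A and, on day 1 only, 2.5 µM CHIR (which blocks the kinase GSK3 and so switches on Wnt targets) in DMEM-F12 with 0.2% BSA. The labels and protocols used here do not say how the knockdown was made or whether the DE cells carried a control construct. The labels do not say whether replicates came from separate cultures, and p-values here reflect variation among the 6 libraries, which could be technical variation alone.

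Notch signalling passes between touching cells. A ligand of the Delta-like (DLL) or Jagged (JAG) family on one cell binds a Notch receptor on its neighbour, and the pull of the ligand lets ADAM proteases and then gamma-secretase cut the receptor, so that its intracellular part moves to the nucleus, joins the DNA-binding protein RBPJ and a Mastermind coactivator (MAML), and turns on genes such as those of the HES and HEY repressors. In the early embryo the pathway is best known for boundaries between somites, for the choice between neural progenitors and neurons, and, in later endoderm, for the fates of pancreatic and bile duct cells.

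The DNA just before the start sites was compared because the members ranged from abundant to barely detected. RefSeq promoters (GRCh38.p14) matched 7 of the 9 members. DLL1 and DLL3 had no entry, nor did HEY1 among the target genes. The 250 bases before the start held between 58% and 81.6% G and C in these 7, against a median of 58% over all 35116 promoters. A GC box (GGGCGG or CCGCCC, searched on both strands, with overlaps allowed) stood in all 7, and in 42.6% of all promoters. The hexamer TGGGAA (or TTCCCA), the core that RBPJ binds, was in none of the 7 and in 20.8% of all promoters. A total of 4 members are shown with GC boxes in capitals, the receptor with the highest level (NOTCH3), the receptor and ligand with the lowest (NOTCH4 and DLL4), and the ligand that differed most between the groups (JAG1).
NOTCH3 (chr19:15200996-15201245, minus strand): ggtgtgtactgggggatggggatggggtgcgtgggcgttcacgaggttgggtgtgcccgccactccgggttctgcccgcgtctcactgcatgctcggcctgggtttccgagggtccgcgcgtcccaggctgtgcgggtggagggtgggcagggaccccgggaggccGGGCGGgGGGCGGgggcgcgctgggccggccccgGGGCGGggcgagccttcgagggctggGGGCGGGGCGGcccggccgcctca
NOTCH4 (chr6:32224068-32224317, minus strand): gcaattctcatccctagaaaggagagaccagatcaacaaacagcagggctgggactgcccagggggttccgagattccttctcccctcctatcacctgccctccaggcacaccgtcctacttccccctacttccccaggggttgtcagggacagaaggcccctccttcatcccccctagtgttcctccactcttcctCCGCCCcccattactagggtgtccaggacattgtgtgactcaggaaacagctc
DLL4 (chr15:40929090-40929339, plus strand): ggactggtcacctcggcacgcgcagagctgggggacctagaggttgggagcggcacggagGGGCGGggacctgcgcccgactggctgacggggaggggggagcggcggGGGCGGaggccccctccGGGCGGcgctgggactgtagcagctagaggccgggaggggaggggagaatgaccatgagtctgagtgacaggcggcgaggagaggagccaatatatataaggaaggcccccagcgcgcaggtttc
JAG1 (chr20:10674000-10674249, minus strand): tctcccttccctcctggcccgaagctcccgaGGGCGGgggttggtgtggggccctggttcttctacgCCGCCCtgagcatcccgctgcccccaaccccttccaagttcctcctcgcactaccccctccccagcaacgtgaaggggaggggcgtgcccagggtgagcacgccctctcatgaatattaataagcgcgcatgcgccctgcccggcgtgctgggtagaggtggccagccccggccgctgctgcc
NOTCH3 held 28 CpG dinucleotides and 5 GC boxes in this window, and NOTCH4 held 3 and 1. DLL4, lower in RNA than NOTCH4, held 20 CpG dinucleotides and 3 GC boxes, and JAG1 17 and 2. NOTCH4 thus had a low level and a CpG-poor window, and DLL4 a low level without such a window. Whether window content goes with RNA level was not tested.

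The values are TPM, a transcript abundance scaled by gene length and by the total of the library, so levels of different genes can be set side by side. Steps between low values put the libraries at an estimated 18640828 to 24510636 reads. Transcripts of mitochondrial DNA took 38.04% of TPM in DE replicate 3 and 36.2% in KD replicate 3, against 24.6% to 28.8% in the other libraries. GATA6-AS1 stood between 313 and 421 TPM in DE against between 126 and 180 in KD, with a KD mean at 41.8% of the DE mean (log2 change -1.26, limma adjusted p = 0.0128; without DE replicate 1 it was 0.0717 and without KD replicate 2 it was 0.0612). Its neighbour GATA6, an endoderm transcription factor, had a KD mean at 63.05% of that in DE (limma adjusted p = 0.0648, and 0.00500 with the replicate block). On chromosome 18 the spans of GATA6-AS1 (22164886 to 22169878) and GATA6 (22169443 to 22202528) overlap on opposite strands. Without a stated strand setting, reads from the overlap cannot be told apart, and the shared exonic bases were not counted. All 10 endoderm markers had a mean of at least 1 TPM, and their sum was 25195 to 28842 TPM in DE against 18295 to 20078 in KD. CER1 (16124.3 to 25176.5 TPM) made most of the endoderm sum, and each of the other endoderm markers also had a lower KD mean. The 10 pluripotent cell markers summed to 3410 to 4303 TPM in DE against 4549 to 5146 in KD. Among them LIN28A in KD was at 99.3% of its DE mean and TDGF1 at 86.1%, while the other pluripotent markers had higher KD means. Of 10 endothelial markers 8 stayed under 1 TPM in every library, PECAM1 and CDH5 included, and KDR (73.5 to 125.6 TPM) made most of the sum of 84.9 to 109 TPM in DE against 133 to 140 in KD. Of the markers of presomitic mesoderm, neural cells, and mural cells and fibroblasts, 5 of 8, 8 of 10 and 6 of 10 stayed under 1 TPM in every library, and their sums were at most 10.3, 5.95 and 30.8 TPM. No marker on these lists was at 0 in every library. In bulk RNA, fewer cells of a type and less RNA per cell cannot be told apart.

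NOTCH3 was the most abundant receptor. NOTCH3, known from vascular smooth muscle and pericytes, lies on chromosome 19 from 15159038 to 15200981 (GENCODE 29 on GRCh38, as for all positions). It had 111.7, 109.04 and 79.6 TPM in DE replicates 1 to 3 and 99.7, 104 and 82.3 TPM in KD replicates 1 to 3. Replicate 3 was the lowest in both groups, and the groups overlapped. The DE mean lay above those of 92.7% of the 17711 genes tested.

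NOTCH1, the receptor best known from neural progenitors and T cells, lies on chromosome 9 from 136494433 to 136545786. It had 44.7, 44.2 and 32.1 TPM in DE against 49.6, 51.9 and 39.05 in KD. Each KD library was above the DE library of the same number, but KD replicate 3 was below DE replicates 1 and 2. JAG1 also rose in each same-numbered pair, and the share of all genes with such agreement was not computed. NOTCH2, a receptor with roles in bile duct and kidney, lies on chromosome 1 from 119911553 to 120069626. Its values were 25.8, 29.04 and 22.8 TPM in DE against 25.6, 27.1 and 24.1 in KD, with full overlap. The partial copy NOTCH2NL, listed at 0.115 to 0.453 TPM, can share reads with NOTCH2, so both values are less certain.

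NOTCH4, known from endothelium, was close to the limit of detection. It lies on chromosome 6 from 32194843 to 32224067, and its values were 0.531, 0.575 and 0.334 TPM in DE against 0.437, 0.725 and 0.330 in KD. These rested on an estimated 21 to 46 reads a library, and 98 of its exonic bases (1.01%) are shared with GPSM3 on the same strand. Of the endothelial markers, PECAM1 and CDH5 were lower than NOTCH4 in every library (at most 0.181 and 0.157 TPM), while SOX18 (10.5 to 16.97 TPM) and KDR were higher.

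Among the ligands, JAG2 had the highest mean in both groups, although DLL3 was above it in KD replicate 2. JAG2, a Jagged ligand known from limb and thymus development, lies on chromosome 14 from 105140981 to 105168824. It had 9.42, 8.72 and 6.12 TPM in DE against 7.87, 6.96 and 5.26 in KD. Each KD library was below the DE library of the same number, with overlap between the groups. The same held for DLL1 and DLL4, and the share of all genes with such agreement was not computed. JAG2 shares 469 exonic bases, 7.33% of its exons, with a noncoding gene on the same strand, AL512356.1, and reads there could not be assigned to either.

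DLL1, the Delta ligand of somite formation and neurogenesis, lies on chromosome 6 from 170282206 to 170306565. It had 6.54, 6.57 and 4.56 TPM in DE against 4.62, 5.38 and 3.68 in KD. DE replicates 1 and 2 were above all KD libraries, and DE replicate 3 lay among them. DLL3, a Delta protein that inhibits Notch within the cell that makes it and is needed for somites, lies on chromosome 19 from 39498895 to 39508481. Its values were 5.77, 6.49 and 3.55 TPM in DE against 5.96, 7.80 and 2.50 in KD. No other member above 1 TPM spread as widely in KD, where replicate 3 stood at 0.364 of the mean of the other two.

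JAG1, the Jagged ligand mutated in Alagille syndrome of the bile ducts, was the single member whose groups did not overlap. It lies on chromosome 20 from 10637684 to 10673999. It had 3.98, 4.56 and 3.45 TPM in DE against 5.88, 5.79 and 5.15 in KD. Every KD library was above every DE library. An antisense gene, AL050403.2, shares 79 exonic bases with JAG1, 0.85% of its exons, and without a stated strand setting reads there cannot be told apart. DLL4, the Delta ligand of sprouting vessels, lies on chromosome 15 from 40929333 to 40939073. It had 0.206, 0.0983 and 0.130 TPM in DE against 0.149, 0.0323 and 0.0521 in KD. DLL4 rested on 14 reads over the DE libraries (95% exact Poisson interval 7.65 to 23.5) and 7 over the KD libraries (2.81 to 14.4). These intervals cover counting error only, and they overlap, so a difference of this size was not resolved at this depth. In the fit without the filter on low values, the log2 change of DLL4 was -0.09 (limma adjusted p = 0.767).

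**Figure D1:**
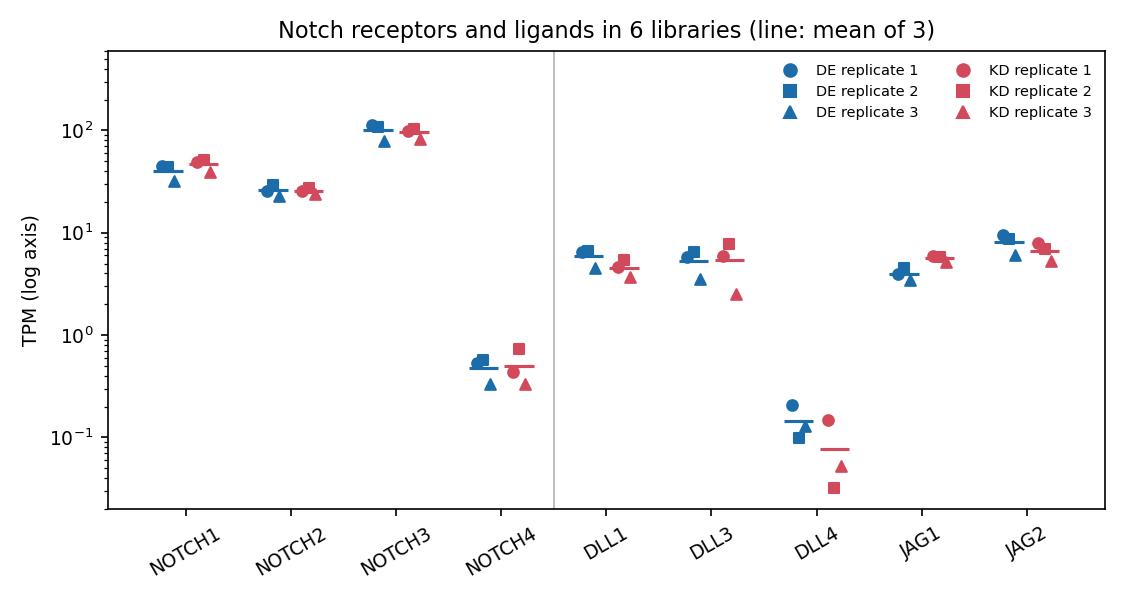
TPM of the 4 receptors and 5 ligands (log axis) in each of the 3 DE (blue) and 3 KD (red) libraries, with the mean of each group as a line. NOTCH3 lies highest at 79.6 to 111.7 TPM, NOTCH4 and DLL4 lie under 1 TPM, and JAG1 is the member whose groups are separate.

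The receptors outweighed the ligands in every library. Summed receptor TPM were 166.8 ± 27.7 in DE and 168.4 ± 19.97 in KD (SD, n = 3 each), and summed ligand TPM 23.4 ± 4.84 and 22.4 ± 5.01. The ratio of the sums lay between 6.92 and 8.76 in the 6 libraries, with overlap between groups. In the order of DE means, NOTCH3, NOTCH1 and NOTCH2 were separated from each other and from JAG2 by non-overlapping libraries. JAG2, DLL1, DLL3 and JAG1 followed, each overlapping the next. NOTCH4 and then DLL4 came last, both separated. In KD the order was the same except within the group of 4, where JAG1 came directly after JAG2 and DLL1 came last, again with each overlapping the next.

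A total of 8 of the 9 members, all but DLL4, had their lowest value in replicate 3 in both groups, the libraries with the largest mitochondrial share. Replicate 3 stood at 0.579 to 0.857 of the mean of replicates 1 and 2 over the 9 members in DE, and at 0.364 to 0.914 in KD. NOTCH3 without mitochondrial genes had 156, 145 and 129 TPM in DE against 139, 146 and 129 in KD, so replicate 3 was still the lowest. The same held for 7 of the 9 members on that scale, and the part of the mitochondrial share in the low values was not tested.

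No receptor or ligand passed the test between KD and DE. Of the 17711 genes that reached 1 TPM in 3 or more libraries, 579 passed limma's test on log2(TPM + 1) at a Benjamini-Hochberg adjusted p of 0.05, which is 3.27% (1.77% higher and 1.5% lower in KD). Of the 9 members 7 were tested, with NOTCH4 and DLL4 below the filter, and 0 of the 7 passed. By limma's unadjusted p under 0.05, 1 of the 7 (JAG1) was found, against 15.4% of all genes. With voom on the estimated reads, 1 of the 7 passed after adjustment (JAG1) and 2 had an unadjusted p under 0.05, against 25.1% of all genes in that fit. Only JAG1 among the 7 had no overlap between groups, where 20.8% of all genes tested had none (10.1% higher and 10.7% lower in KD). The median log2 change of the 7 was -0.034, and that of all genes tested -0.005.

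JAG1 had 3.997 ± 0.558 TPM in DE against 5.61 ± 0.401 in KD (SD, n = 3 each). Its log2 change of 0.41 (SE 0.140, 95% interval 0.08 to 0.74) did not pass (limma adjusted p = 0.209). The call depended on the scaling of the libraries. The limma adjusted p of JAG1 was 0.0284 after quantile normalization, 0.0283 after median-ratio scaling, 0.0326 when TPM were recomputed without mitochondrial genes, and 0.00981 with voom on the estimated reads (which for JAG1 lay up to 0.381 from a whole number), with log2 changes from 0.41 to 0.50. With the replicate number as a block it was 0.0621.

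In the main fit the intervals of the other tested members all held 0. Other fits gave more members, JAG1 included, an unadjusted limma p under 0.05. They were 4 of the 7 with the replicate block, against 28.1% of all genes. After quantile normalization or median-ratio scaling they were 3 of the 7, against 24.5%. NOTCH1 had a log2 change of 0.22 in the main fit (95% interval -0.18 to 0.61, limma adjusted p = 0.677, and 0.0704 with the block). NOTCH3 and NOTCH2 were at -0.06 (-0.43 to 0.31) and -0.01 (-0.29 to 0.27). Both values turned positive in some fits that left out a library. DLL1 was at -0.31 (-0.74 to 0.13) and JAG2 at -0.24 (-0.70 to 0.23). DLL3 had the widest interval (-0.03, from -0.87 to 0.80), and its log2 change was 0.35 without KD replicate 3.

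Because all 9 values in a library share its depth and total, shares and ratios within a library were computed. These were chosen after the values were seen and carry no test. NOTCH3 made up 61.1%, 59.6% and 59.02% of receptor TPM in DE and 56.9%, 56.6% and 56.5% in KD. NOTCH1 made up 24.5%, 24.2% and 23.8% in DE and 28.3%, 28.2% and 26.8% in KD. Neither share overlapped between groups, while that of NOTCH2 (14.1% to 16.9%) did. No background was computed for shares of the receptor sum. In ratios to a single gene, a different measure, separation was common. Of the other genes tested, 26.5% did not overlap in their ratio to NOTCH3 and 38.6% in their ratio to NOTCH1. Receptor shares are also not independent, since a higher NOTCH1 share lowers the others.

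The ratio of NOTCH1 to NOTCH3 TPM was 0.400, 0.405 and 0.403 in DE and 0.497, 0.498 and 0.474 in KD. It varied less among the DE libraries (0.403 ± 0.00246, SD, n = 3) than either gene alone. Among the ligands, JAG1 made up 15.4%, 17.3% and 19.4% of ligand TPM in DE and 24.02%, 22.3% and 30.9% in KD, and DLL1 25.2%, 24.8% and 25.6% in DE and 18.9%, 20.7% and 22.1% in KD. The JAG2 share was 36.3%, 33.0% and 34.4% in DE and 32.2%, 26.8% and 31.6% in KD. These 3 shares did not overlap between groups, and those of DLL3 and DLL4 did. No background was computed for such shares, which are not independent, since a higher JAG1 share lowers the others. The TPM of DLL1 and of JAG2 themselves overlapped between groups.

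The ratio of JAG1 to JAG2 was 0.423, 0.523 and 0.563 in DE and 0.747, 0.832 and 0.978 in KD, without overlap. As background, 31.5% of the other genes did not overlap in their ratio to JAG2. DLL1 exceeded JAG1 in every DE library (ratios 1.64, 1.44 and 1.32) and was below it in every KD library (0.785, 0.928 and 0.715), so the order of these 2 ligands was opposite in the groups. The ratio to JAG1 did not overlap for 69.6% of the other genes. Of the 21 ratios among the 7 members, 10 did not overlap, of which 5 involved JAG1 and none involved DLL3. NOTCH1 and DLL1 were each part of 4, NOTCH3 of 3, and NOTCH2 and JAG2 of 2. The background shares of genes whose ratio did not overlap were 38.6% to NOTCH1, 44.3% to DLL1, 27.5% to NOTCH2 and 4.54% to DLL3, so nothing particular to the members is read from these counts.

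**Figure D2:**
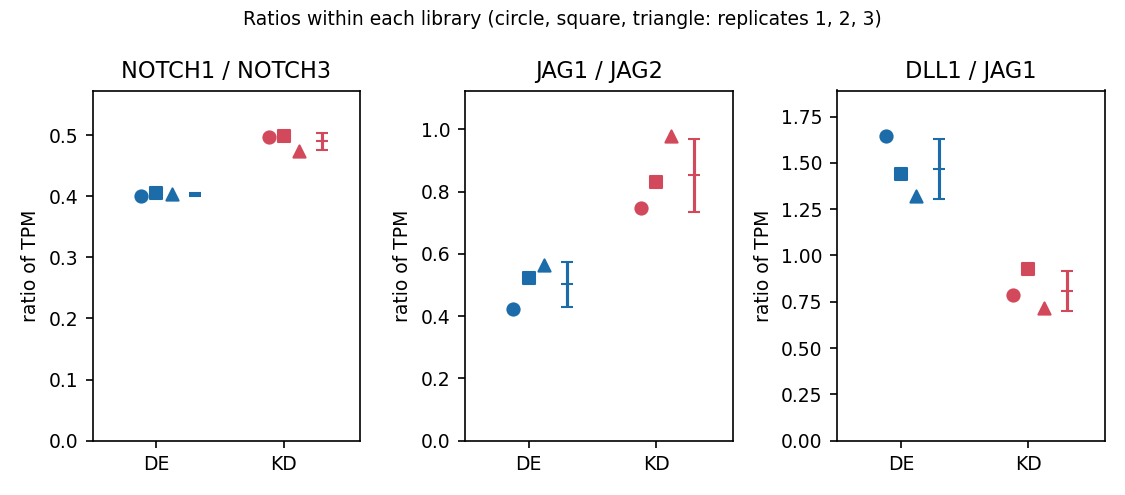
Ratios of TPM within each library (axes from 0) for NOTCH1 to NOTCH3, JAG1 to JAG2 and DLL1 to JAG1, in 3 DE (blue) and 3 KD (red) libraries, with mean and SD at the side. NOTCH1 to NOTCH3 is near 0.40 in all DE libraries and 0.474 to 0.498 in KD, and DLL1 to JAG1 is above 1 in DE and below 1 in KD.

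Most of the machinery that makes, cuts and clears Notch was present and did not pass the test. Of 69 other pathway genes 61 were tested, 6 rose in KD, 1 fell and 54 did not pass (background 3.27%), with a median log2 change of -0.018. HEY1 and SOX9 among the rises, and CNTN1 among the rest, reached the filter only through the KD libraries, where they are high. With the replicate block 11 were higher, HEY1 and SOX9 again among them, and 4 lower, where 12.5% of all genes passed. The lists were assembled with earlier results of these data known.

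Of the 9 proteases and gamma-secretase subunits that cleave the receptor, all 9 were tested and none passed. NCSTN, the nicastrin subunit of gamma-secretase, had a log2 change of -0.09 (limma adjusted p = 0.764). None of 8 tested sugar transferases that modify the receptor passed, XXYLT1 (-0.21, 0.450) and RFNG, a Fringe enzyme that tunes ligand choice (-0.20, 0.760), having the smallest p. Of the corepressors that bind RBPJ none of 9 tested passed, the deacetylase HDAC1 (-0.18, 0.554) among them. Paired values in brackets are the log2 change and the limma adjusted p.

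Of 11 genes for receptor trafficking and breakdown none passed. DTX2, a Deltex ubiquitin ligase, had 13.8 ± 1.07 TPM in DE against 19.5 ± 0.0907 in KD (SD, n = 3 each; log2 change 0.47, limma adjusted p = 0.0575, and 0.0154 with the replicate block). DTX3L, a relative, had a log2 change of 0.59 (limma adjusted p = 0.187). Among 3 tested ubiquitin ligases that act on the ligands none passed, and NEURL1B (log2 change 0.63, limma adjusted p = 0.119) and MIB2 (-0.38, 0.249) pointed in opposite directions. With the block, NEURL1B had an adjusted p of 0.00544 and MIB2 one of 0.0196.

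In the nuclear complex 1 of 9 genes passed. MAML2, a Mastermind coactivator, had 3.38, 3.26 and 2.83 TPM in DE against 6.14, 6.26 and 5.52 in KD. Every KD library was above every DE library, a rise of 0.75 on the log2 scale (SE 0.131, limma adjusted p = 0.0301). Its paralog MAML3 was lower in all KD libraries, with 39.08 ± 1.85 and 30.2 ± 1.22 TPM (SD, n = 3 each), and did not pass (limma adjusted p = 0.0955, with the block 0.0271, at a log2 change of -0.36). RBPJ had a log2 change of 0.35 (limma adjusted p = 0.438). With the block, KAT2A, an acetyltransferase, also passed. Of 2 tested ligands outside the DSL family, DLK1, an imprinted Delta-like protein without the DSL domain, fell from 7.39 ± 0.506 to 2.78 ± 0.687 TPM (log2 change -1.16, limma adjusted p = 0.0151), and CNTN1 did not pass (0.64, 0.141).

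**Figure D3:**
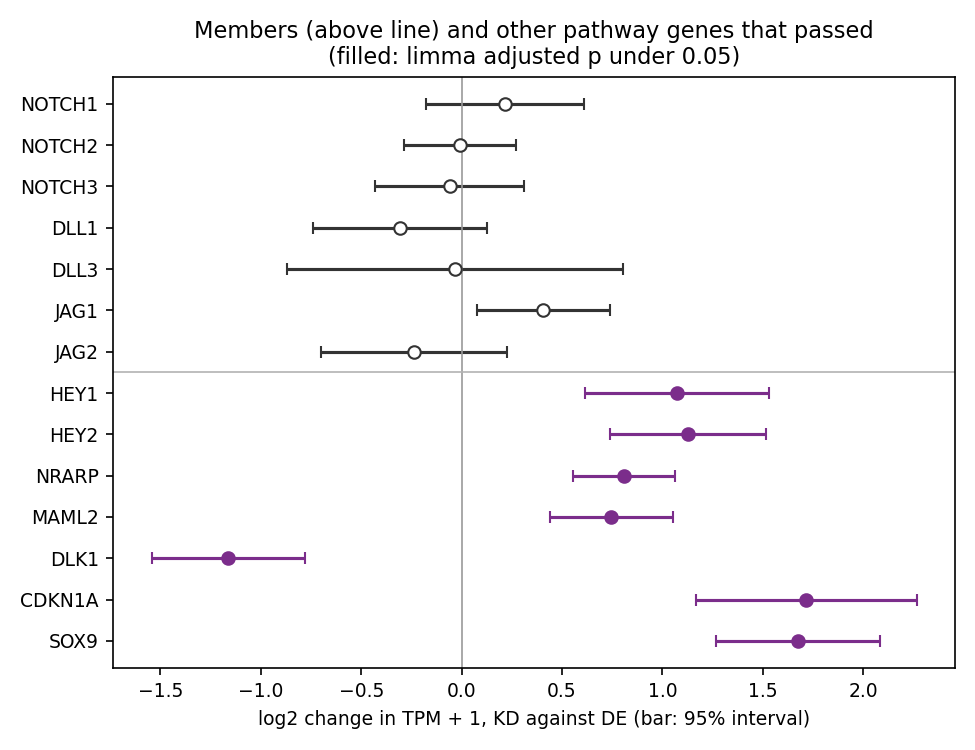
Log2 change in TPM + 1, KD against DE, with 95% intervals from limma, for the 7 tested members (dark, above the line) and the 7 other pathway genes that passed (purple). The interval of each member except JAG1 spans 0, and none of the members passed (open symbols), while HEY1, HEY2, NRARP, MAML2, CDKN1A and SOX9 lie to the right and DLK1 to the left.

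Several known Notch targets were higher in KD although no receptor or ligand passed. Of 16 listed targets 13 were tested, NOTCH3 among them. A total of 5 rose (HEY1, HEY2, NRARP, CDKN1A and SOX9), none fell and 8 did not pass (background 3.27%, and 1.77% for higher genes). HEY1 and SOX9 were under 1 TPM in every DE library and were tested only because they are high in KD, so they give no support to this count. Of the other 11 targets 3 rose (HEY2, NRARP and CDKN1A). With a filter on the mean over all libraries (at least 5 TPM), 4 of 7 passed (HEY2, NRARP, CDKN1A and CCND1) against 4.16% of all genes. CDKN1A, at 1.83 to 3.99 TPM in DE, reached that mean only through KD, so it gives no support to this count. With no filter 3 of 16 passed (NRARP, CDKN1A and SOX9) against 0.646%. With the replicate block, where 12.5% of all genes passed, 7 of the 13 were higher, MYC and CCND1 being added, and 1, HES4, was lower. HEY1 and SOX9 are again among the 7 and give no support here either. Without them 6 of 11 passed with the block, HES4 being the lower one. The targets differ in how specific they are, since CDKN1A (p21), SOX9, MYC and CCND1 are controlled by many pathways.

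HEY2, a repressor that Notch induces in heart and vessels, had 6.17, 5.80 and 4.41 TPM in DE against 12.7, 15.3 and 11.2 in KD, with all KD libraries above all DE libraries. It rose by 1.13 on the log2 scale (SE 0.165, limma adjusted p = 0.0173). HEY1, its paralog, went from 0.778, 0.723 and 0.862 TPM to 3.18, 3.23 and 1.99 TPM, an estimated 51 reads over the DE libraries and 178 over the KD libraries (log2 change 1.07, SE 0.196, limma adjusted p = 0.0350, and 0.105 without the filter that HEY1 passed through KD alone). NRARP, a small protein that Notch induces and that in turn dampens the RBPJ complex, had 28.8, 31.0 and 27.1 TPM in DE against 54.6, 53.9 and 46.3 in KD (log2 change 0.81, SE 0.108, limma adjusted p = 0.0136).

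CDKN1A rose from 2.94 ± 1.08 to 11.7 ± 2.06 TPM (SD, n = 3 each; log2 change 1.72, limma adjusted p = 0.0138). SOX9, a transcription factor of progenitors in many organs, rose from 0.568, 0.752 and 0.590 TPM to 4.33, 4.96 and 3.49 TPM (log2 change 1.68, limma adjusted p = 0.00572, and 0.0256 without the filter, which SOX9 also passed through KD alone). For the low genes HEY1 and SOX9 the added 1 TPM holds the fold down, and with voom the log2 changes were 1.77 and 2.71.

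HES1, HES4 and HEYL were tested and did not pass, and HES2, HES5 and HES7 were below the filter. HES1, the most abundant HES target here, had 70.6, 88.4 and 69.6 TPM in DE against 92.8, 97.5 and 80.7 in KD, with overlap (log2 change 0.25, limma adjusted p = 0.446). HES4 was lower in every KD library, at 2.37 ± 0.779 and 0.747 ± 0.338 TPM (SD, n = 3 each), and missed the threshold (limma adjusted p = 0.0953 at a log2 change of -0.94, and 0.0390 with the block). Its values rested on an estimated 53 reads over the DE libraries and 16 over the KD libraries. HES5, a target in neural progenitors, was at 0 to 2 reads a library. HES2 had 0.336, 0.375 and 0.0286 TPM in DE against 0.918, 0.653 and 0.595 in KD, without overlap, and HES7 (0.411 to 1.24 TPM) overlapped. HEYL was at 1.76 ± 0.411 and 1.699 ± 0.145 TPM (log2 change -0.02, limma adjusted p = 0.987). Whether the HEY and HES changes differ from each other was not tested.

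For these target genes the RBPJ hexamer in the 250 bases before the start is shown in capitals, in HES1 and in HEY2, which rose. Only exact matches to TGGGAA or TTCCCA were searched, so other forms of an RBPJ site are unmarked. HES1 held 2 matches and HEY2 held 1, while NRARP, which rose as well, held none in this window. HES4 (1 match), HEYL (2) and HES5 (2) also held it, of which HES4 and HEYL did not pass and HES5 was not tested.
HES1 (chr3:194135898-194136147, plus strand): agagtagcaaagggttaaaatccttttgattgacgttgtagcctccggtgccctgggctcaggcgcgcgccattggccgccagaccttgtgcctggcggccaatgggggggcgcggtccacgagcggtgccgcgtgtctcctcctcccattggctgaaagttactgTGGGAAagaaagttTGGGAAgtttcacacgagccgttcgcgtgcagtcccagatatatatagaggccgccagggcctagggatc
HEY2 (chr6:125749382-125749631, plus strand): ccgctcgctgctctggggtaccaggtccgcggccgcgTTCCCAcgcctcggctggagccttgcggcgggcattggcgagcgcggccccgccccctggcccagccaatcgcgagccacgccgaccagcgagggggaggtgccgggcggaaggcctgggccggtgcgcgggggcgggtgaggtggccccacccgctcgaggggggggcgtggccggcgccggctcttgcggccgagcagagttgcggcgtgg

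The calls on these genes were sensitive to single libraries. HEY1 no longer passed without any one of DE replicates 1, 2 or 3 or KD replicates 1 or 2, HEY2 without DE replicate 1 or 2 or KD replicate 1 or 2, NRARP without DE replicate 1 or KD replicate 1 or 2, and MAML2 without any single library except DE replicate 3, with fewer libraries in each fit and limma adjusted p of at most 0.168. CDKN1A no longer passed without DE replicate 2 or KD replicate 1 or 2, and DLK1 without DE replicate 1 or 2 or KD replicate 2. SOX9 passed in each of these fits. They kept the filter that SOX9 passed through KD alone, so this gives SOX9 no added support. Without the filter on low values, HEY1 (limma adjusted p = 0.105), HEY2 (0.0517), MAML2 (0.0935) and DLK1 (0.0510) did not pass either. The sum of the pluripotent cell markers was higher, and that of the endoderm markers lower, in every KD library than in every DE library (values above). Their part in the differences of Notch pathway genes was not tested.

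**Figure D4:**
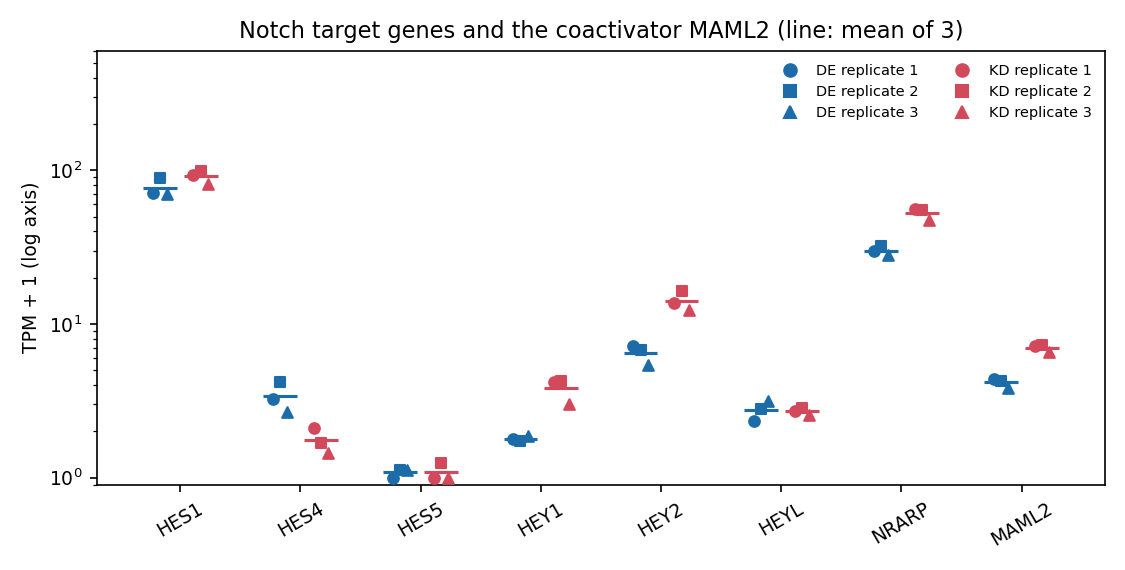
TPM + 1 (log axis) of Notch targets and the coactivator MAML2 in the 3 DE (blue) and 3 KD (red) libraries, with the mean of each group as a line. HEY1, HEY2, NRARP and MAML2 are higher in all KD libraries, HES4 is lower, and HES1, HES5 and HEYL overlap.

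Genes with the pattern most like that of the 3 members with the smallest p were ranked by Pearson's r of log2(TPM + 1) over the 6 libraries, among genes with a mean of at least 5 TPM. For JAG1 they were SPRY1, FKBP14 and RCC1 (r = 0.997, 0.995 and 0.995). For DLL1 they were DBNL, R3HCC1 and FBLN2 (0.997, 0.996 and 0.996), and for NOTCH1 PHKA1, SALL3 and IMPA2 (0.997, 0.997 and 0.996). With 6 libraries such values are common, since 433 genes had an r above 0.95 with JAG1, 359 with DLL1 and 669 with NOTCH1, out of 11760 or 11761 ranked. The libraries share the low replicate 3 that runs through most members.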

How the data were processed

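The authors deposited TPM for 58830 genes and 6 libraries, per the file headers, and each library sums to 1000000. HISAT2 2.1.0, featureCounts and DESeq2 appear, without roles, among the tools of the submitters' processing notes, and GRCh38 as the build. The annotation release, strand setting and filters behind the TPM were not stated there.

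Genes that reached 1 TPM in 3 or more libraries were fitted as log2(TPM + 1) with limma 3.58.1 in R 4.3.3 (group as term, eBayes with trend, 2-sided, Benjamini-Hochberg over all genes tested, threshold 0.05). Fold changes are on the scale of TPM plus 1 and understate changes of low genes. The fit was also run on simulated reads, drawn independently for each library and without a low replicate 3 or differing mitochondrial shares. That run does not bear on how these features affect the calls. Reads were estimated from steps of TPM times exon length (GENCODE 29) for 37138 genes matched by symbol. Between 88.2% and 88.9% of values under 50 reads lay within 0.02 of a whole number, as did 6 of the 9 members in all libraries. NOTCH1, NOTCH2 and JAG1 did not, so their estimated reads, and the voom fit of JAG1, are less certain.

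Replicate numbers come from the sample titles. The main fit did not use them as pairs. Same-numbered DE and KD libraries correlated at 0.108, 0.144 and 0.347 in their deviations from group means, above the limit of 0.1. Values from the fit with the replicate block are therefore given where they change a call. The pairing rests on the data and is uncertain, since DE replicate 2 with KD replicate 1 reached 0.121, above the 0.108 of the libraries numbered 1.

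Members and lists were chosen with earlier results of these data known. Named genes were the 9 members, the knocked-down gene, GATA6, copies of NOTCH2, pathway genes past the threshold or otherwise the 2 with the smallest p in a list, main HES and HEY targets, the top marker of each cell type, and for 3 members the 3 most similar genes. Some genes that this rule names are not reported here. RBPJ, MAML3, KAT2A, MYC, CCND1, HES2, HES7, PECAM1, CDH5 and SOX18 were named after their values were seen. Alternatives were other pseudocounts, filters, scalings and variance settings, the block, and leaving out libraries. A voom fit on estimated reads was added after seeing the data.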

Additional observations from a re-analysis of the deposited data

How the results depend on the processing

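For the 7 tested members no alternative gave a call except for JAG1, whose log2 change of 0.41 passed at 0.42 after quantile normalization, 0.41 after median-ratio scaling, 0.44 without mitochondrial genes and 0.50 with voom. JAG1 has no value at a mean of 5 TPM, where it was filtered out. Values near 0 changed sign, the cause of which was not tested. NOTCH2 was at 0.0034 without mitochondrial genes and 0.0009 with voom. DLL3 was at 0.14 without the third replicates of both groups, where HEYL was at 0.12, and HEYL was at 0.0087 with voom. Leaving out 1 library gave -0.092 to 0.075 for NOTCH2, -0.22 to 0.042 for NOTCH3, -0.31 to 0.35 for DLL3, -0.14 to 0.079 for HEYL, 0.33 to 0.49 for JAG1 and 0.064 to 0.34 for NOTCH1. DLL1 stayed between -0.45 and -0.19 and JAG2 between -0.40 and -0.094.

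The count of genes called (579, 314 higher and 265 lower in KD) was 2215 with the replicate block (1042 and 1173), 239 without a filter (132 and 107), 1754 after quantile normalization (866 and 888), 1743 after median-ratio scaling (879 and 864), 1682 without mitochondrial genes (874 and 808), 1212 without the third replicates of both groups (507 and 705) and 1848 with voom (945 and 903). It lay between 87 and 610 without 1 library (61 to 248 higher, 24 to 362 lower). The 7 other pathway genes called became 15 with the replicate block, 3 without a filter, 13 with each of the other scalings and without mitochondrial genes, 16 with voom, and 1 to 6 without 1 library. The block changed no call of a receptor or ligand, and beyond the genes given above with blocked values or as added by it, no call of another pathway gene. Depth limits NOTCH4 and DLL4, which the filter on low values left out of the test.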
